A study of Sus scrofa with 75 samples.

Results

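A joint gene identifier is an entry of the assembled pig annotation whose name strings together 2 or more Ensembl gene identifiers, because at least 1 long-read transcript runs across all of them. The 266 joint identifiers were all gene names of the annotation that hold 2 or more such identifiers, out of 35936 gene identifiers in all (0.740%). They were chosen by name alone, without any measured value. Of these, 263 joined 2 genes and 3 joined 3 genes, and together they drew on 506 different single genes, all of which were also listed and measured under their own names. In the text a joint identifier is written as its genes in 5′ to 3′ order, such as RPS14-CD74, and identifiers stand in for genes without a symbol.

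RNA of 5 organs (spleen, lung, liver, kidney and heart) was taken from adult male pigs aged 12 months. Per organ, 8 Illumina short-read libraries were made, 4 from animals coded BS and 4 from animals coded DSE, and 1 PacBio long-read library was made per organ and code, so 40 short-read and 10 long-read libraries enter here. The labels name no treatment, strain or genotype for either code. They do not say whether a long-read library came from 1 animal or from several.

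In IsoSeq, the PacBio method used here, a cDNA is read from end to end, so that 1 read shows which exons were joined in 1 RNA. When such a read carries exons of several annotated genes, the gene model may have cut 1 gene into pieces, or transcription may have passed the end of an upstream gene and splicing may have joined it to the next one, which is called a read-through or conjoined transcript. Short reads cover only part of an RNA, and a read from an exon that the joint and the single transcript share cannot be told to belong to one or the other, so the division of TPM (a level scaled by transcript length and by library) between them is an estimate.

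The 8 marker genes of heart, kidney and liver and the 7 measured ones of lung and of spleen were each highest in the organ they mark, and above every library of the other organs. The long-read libraries held between 119623 and 456783 full-length reads. Short-read depth is unknown, since the tables used here give TPM only. Joint identifiers took 28101 of 2394346 full-length reads (1.17%). By library their share ran from 0.470% in the DSE kidney (95% Wilson interval 0.439% to 0.504%) to 2.16% in the BS spleen (2.07% to 2.24%), where the intervals cover counting error only. In short reads the mean share of TPM was highest in spleen, at 3.26% ± 0.857 (SD, n = 8), and in heart, at 3.21% ± 0.502. It was 2.59% ± 0.640 in liver, 2.11% ± 0.138 in kidney and 1.94% ± 0.214 in lung. Without the mitochondrial genome, which carries the joint identifier COX2-ATP6, the heart value was 0.445% ± 0.0725 and the kidney value 0.615% ± 0.172.

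All 643 transcripts under joint identifiers came from PacBio reads, and each had exons on every gene it joined. They made up 1.85% of long-read transcripts. The median joint transcript was 3511 nt long in 11 exons. The median of the other 34135 long-read transcripts was 3225 nt, also in 11 exons. A single transcript supported 158 of the 266 joint identifiers, and 10 joint identifiers had 10 or more transcripts. In 369 transcripts, from 137 joint identifiers, at least 1 annotated intron of each joined gene was present with the same ends.

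Joined genes always lay on 1 strand, 140 pairs or triples on the plus and 126 on the minus strand. The joint identifiers spanned a median of 66455 bp, from 1596 bp to 788358 bp, whereas the single genes they joined spanned a median of 18681.5 bp. Of the pairs, 231 were separated, by a median of 9896 bp, with 40 pairs under 1 kb apart and 14 over 100 kb apart, and 32 pairs overlapped. Another gene on the same strand lay between the joined genes in 34 cases. Chromosome 7 held 36 joint identifiers and chromosome 6 held 26.

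Both genes were coding in 189 pairs, and a noncoding gene lay 5′ of a coding one in 55 pairs and 3′ of it in 18 pairs. Among the 190 joint identifiers of coding genes only, 184 of 499 transcripts (36.9%) had an annotated coding sequence that overlapped the coding sequence of every joined gene, and these came from 83 joint identifiers.

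RefSeq, an independent annotation of the same assembly, described the loci in different ways. A single RefSeq gene overlapped all the joined genes for 125 joint identifiers, separate RefSeq genes overlapped them for 98, at least 1 joined gene had no RefSeq gene for 34, and 9 lay on unplaced scaffolds. The RefSeq table gives no strand, so the match was by position. Such coding sequences were present for 44 of the 73 coding joint identifiers under a single RefSeq gene and for 29 of the 89 with separate RefSeq genes.

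The share of signal carried by the joint identifier differed between these classes. For 264 joint identifiers with either the joint or a single gene at 1 TPM or more in an organ, the joint identifier took a median of 19.4% of the TPM of joint and joined genes together. Under a single RefSeq gene that median was 48.5% (n = 123), and 27 joint identifiers took 90% or more. With separate RefSeq genes it was 7.53% (n = 98), and 1 took 90% or more. Long reads gave the same order. As a share of the reads of the PacBio locus, counted where that locus had 10 or more reads, the joint identifier took a median of 52.3% under a single RefSeq gene (n = 101, of which 42 were at 90% or more) and 8.93% with separate RefSeq genes (n = 92, of which 5 were at 90% or more). The classes overlapped over nearly the whole range, as 29 of the 123 joint identifiers under a single RefSeq gene took under 10% of the TPM.

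**Figure D1:**
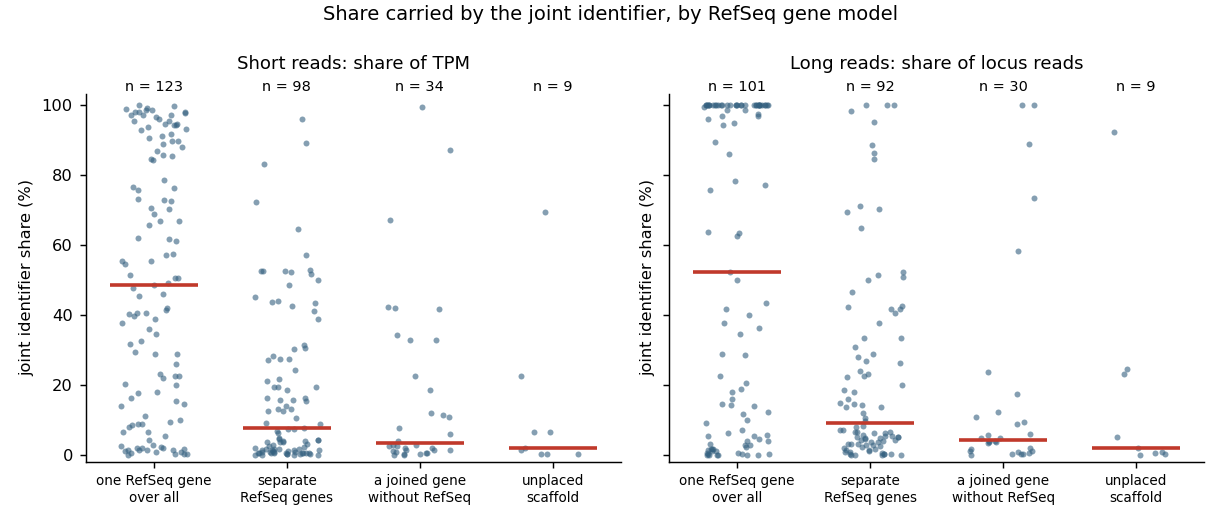
Share of signal carried by each joint identifier (y axis, percent), by how RefSeq annotates the joined genes. The left panel gives TPM of the joint identifier over TPM of joint and joined genes, the right panel full-length reads over all reads of the PacBio locus; each point is a joint identifier and the red line is the median. Medians are 48.5% and 52.3% under a single RefSeq gene and 7.53% and 8.93% with separate RefSeq genes.

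The joint identifier with the third most reads lies where RefSeq has a single gene. The joint identifier ENSSSCG00000063544_ENSSSCG00000016075, on chromosome 15 from 101276850 to 101338042 on the minus strand, lies at the RefSeq gene SF3B1, a core subunit of the spliceosome. It had 23 transcripts and 2336 full-length reads, all of the reads of its locus (lower 95% bound 99.8%). In spleen its TPM was 99.6 at the lowest, 141 at the median and 265 at the highest, and in liver 26.2, 39.8 and 61.2. No spleen library fell as low as any liver library. The 5′ gene ENSSSCG00000063544 was listed at 0 in every library, while the 3′ gene ENSSSCG00000016075 had a median of 94.0 TPM in spleen.

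The joint identifier ENSSSCG00000057314-ENSSSCG00000005232 on chromosome 1 lies at SMARCA2, a helicase of the SWI/SNF chromatin remodelling complex. It held 211 of 214 locus reads (98.6%) and 55.3% of the TPM. LAMA2-ENSSSCG00000004207 lies at LAMA2, a laminin chain of the muscle basement membrane, and spans 593067 bp of chromosome 1. All 217 reads of its locus were joint, 137 of them from the BS heart and 39 from the DSE heart. Heart TPM ran from 11.8 through a median of 24.8 to 42.9, above the highest library of any other organ, 9.99 TPM in lung.

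ENSSSCG00000034677-ENSSSCG00000038561, on chromosome 15 from 84399066 to 84408522, lies at TTN, which encodes the giant sarcomere protein titin. It took 18 of 19 locus reads, 16 from the BS and 2 from the DSE heart, and none came from another organ. Its heart TPM was 3.75 at the lowest, 4.63 at the median and 7.65 at the highest. The highest library of the other organs was a lung library at 0.0380 TPM, and kidney and spleen were listed at 0.

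The joint identifier with the second most reads joined a noncoding gene to C7, a complement component that enters the membrane attack complex. ENSSSCG00000053850-C7, on chromosome 16 from 25842840 to 25903896, held all 4297 reads of its locus and 99.2% of the TPM. Spleen libraries ran from 129 through a median of 394 to 538 TPM, and the single gene C7 reached at most 3.06 TPM in any of these organs. Almost all measured C7 signal was thus listed under the joint name. In spleen 953 reads came from BS and 1295 from DSE. No RefSeq gene overlapped 1 of its joined genes, so it is among the 34 of that class.

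ENSA-MCL1 on chromosome 4 joined ENSA, a regulator of the phosphatase PP2A in mitosis, to MCL1, an anti-apoptotic BCL2 family member. A single transcript of 6 exons and 4409 nt took 1850 of 2081 locus reads (88.9%, 87.5% to 90.2%). It had no coding sequence overlapping those of both genes. The short-read share was lower, at 32.8%.

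The largest read count belonged to a liver identifier. ENSSSCG00000031595-ENSSSCG00000002486, on chromosome 7 from 115828399 to 115880322 between SERPINA5 and SERPINA3-2, had 4823 full-length reads, 3702 in the BS and 1121 in the DSE liver, and none in the other organs. It made up 52.2% of the reads of its locus. Liver TPM was 2738 at the lowest, 5793 at the median and 12809 at the highest. No library of another organ exceeded 15.96 TPM, which was reached in kidney. The genes around it are a family of near-identical serpin copies, so the division of reads among them is uncertain. The 5 joint identifiers with the most reads held 51.5% of all joint reads, and the median joint identifier had 9.5.

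Long-read and short-read levels did not always point to the same joint identifiers. Of 231 with both shares, 153 were under 50% in both and 51 at 50% or more in both. In 23 only the long-read share reached 50%, and in 4 only the short-read share did. The shares have unlike bases. That of TPM is taken over the joint and joined genes, that of reads over the whole PacBio locus. For 31 joint identifiers that locus held another joint identifier too. In 6 cases a joint identifier had 100 or more full-length reads but a mean under 1 TPM in every organ. ZBED5-EIF4G2, whose 3′ gene is a translation initiation factor, had 1179 reads in all 10 libraries, or 6.48% of its locus, and a highest organ mean of 0.179 TPM. That mean in lung rested on the DSE2 library at 0.935 TPM. The single gene EIF4G2 had a median of 556 TPM in lung. ZDHHC19-TFRC, whose 3′ gene is the transferrin receptor, had 680 reads (18.5% of its locus) and a highest organ mean of 0.835 TPM. The other 4 were EBPL-RCBTB1 with 281 reads, FMO2-FMO1 with 280, ENSSSCG00000062875-DDX6 with 190 and PARP6-PKM with 110.

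High TPM with few reads also occurred. Of 34 joint identifiers at 100 TPM or more in an organ, 13 had fewer than 10 full-length reads, while 133 of all 266 had 10 or more. COX2-ATP6, which joins subunits of cytochrome oxidase and of the ATP synthase on the mitochondrial genome (positions 8203 to 9798), had 1 read of 39 at its locus and 22381, 29511 and 36282 TPM at the lowest, median and highest in heart. RPS14-CD74, joining a ribosomal protein gene to the invariant chain of MHC class II, had 1 read of 859 (0.116%, 0.0206% to 0.656%) and 1804 TPM ± 681 (SD, n = 8) in spleen. A neighbour of the serpin identifier, ENSSSCG00000031595-ENSSSCG00000002483, had no read among 9233, which allows a share of up to 0.0325% by the rule of 3 counts, yet a median of 1602 TPM in liver. RGS5-ENSSSCG00000047766 took 42.1% of the TPM and 0.231% of the locus reads. Which of the measures lies closer to the RNA present was not tested.

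**Figure D2:**
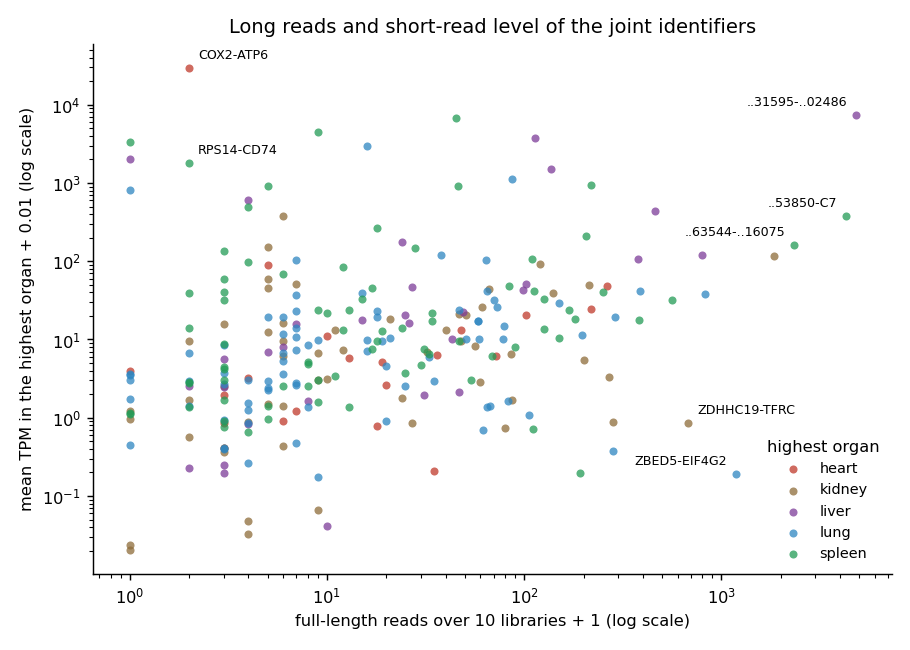
Full-length reads summed over the 10 long-read libraries (x axis, plus 1, log scale) against the mean TPM in the highest organ (y axis, plus 0.01, log scale) for the 266 joint identifiers, coloured by that organ; the dots before a number stand for ENSSSCG000000. COX2-ATP6 and RPS14-CD74 sit at the upper left with 1 read each, and ZBED5-EIF4G2 sits at the lower right with 1179 reads.

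A mean of 1 TPM or more in an organ was reached by 222 of 266 joint identifiers (83.5%). Single identifiers reached it in 45.8% of 35532, but they need no long read to be listed, whereas every joint identifier rests on long-read transcripts, so the shares are not comparable. The organ with the highest mean was spleen for 72 of the 222 (32.4%, single identifiers 24.6%), lung for 68 (30.6%, single identifiers 36.8%), kidney for 40 (18.02%, single identifiers 23.2%), liver for 26 (11.7%, single identifiers 7.24%) and heart for 16 (7.21%, single identifiers 8.12%). These shares were not tested. In whole-organ RNA, fewer cells of a type and less RNA per cell cannot be told apart.

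Organ-enriched joint identifiers were those at least 4-fold above each other organ on the log2(TPM + 1) scale at an adjusted p under 0.05 (limma, Benjamini-Hochberg over 16481 identifiers). There were 24 of 222 (10.8%), beside 10.6% of all identifiers tested, so the share was near the background. Liver had 10 (background 2.2%), spleen 5 (1.48%), heart 4 (1.75%), lung 3 (2.64%) and kidney 2 (2.56%). The liver set included the 2 serpin identifiers, ENSSSCG00000059404-MT1A, SLC12A4-LCAT and APOA5-ZPR1, which carry a metallothionein, the plasma cholesterol-esterifying enzyme LCAT and an apolipoprotein that lowers plasma triglyceride.

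In heart, RGS5-ENSSSCG00000047766 had 66.5, 87.6 and 127 TPM at the lowest, median and highest, and its next organ, kidney, at most 16.1. RGS5, a regulator of G protein signalling of pericytes and cardiac muscle, was itself at a median of 131 TPM in heart. The difference from kidney was 3.38 ± 0.285 (log2, SE; limma adjusted p = 3.00e-12). For the TTN identifier it was 2.56 ± 0.0571 over lung (limma adjusted p = 4.63e-29), a value that understates the difference because the other organs were at or near 0.

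In kidney, EAF2-SLC15A2, whose 3′ gene is a peptide transporter of the proximal tubule, had 19.9, 51.9 and 59.1 TPM, above the highest spleen library at 13.3 (2.10 ± 0.158, limma adjusted p = 1.82e-13). It took 52.4% of the TPM and 1.21% of the locus reads. FGF17-DMTN had 6.66, 8.67 and 13.1 TPM in kidney and at most 1.35 in heart (2.43 ± 0.138, limma adjusted p = 6.93e-17). The latter no longer reached 4-fold when libraries were rescaled by median ratios.

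In liver the serpin identifier stood 11.13 ± 0.378 above kidney (limma adjusted p = 1.69e-23). Its neighbour stood 8.92 ± 0.675 above spleen (limma adjusted p = 1.72e-13), although 1 liver, that of DSE3, was at 6.09 TPM while the other livers were at 511 or more.

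In lung, CYB5R3-POLDIP3 had 43.5, 106 and 170 TPM, far above heart, whose highest library was 5.77 (4.75 ± 0.294, limma adjusted p = 1.09e-15). Neither gene it joined was called organ-enriched: CYB5R3, a cytochrome b5 reductase, had medians of 194 TPM in lung and 115 in liver, and POLDIP3 59.9 in lung and 44.5 in spleen. Of its 6 reads, 5 came from the BS lung. ENSSSCG00000044205-HSPA1L, which RefSeq places at the heat shock gene HSPA1L, had 6.45, 8.93 and 20.02 TPM in lung and at most 0.669 in spleen (3.24 ± 0.135, limma adjusted p = 1.60e-20). Its 15 reads were all from lung.

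The 5 spleen-enriched identifiers all lay in loci of antibody genes or beside them. On chromosome 3 lay 2 of them, at a RefSeq entry typed as a V segment. ENSSSCG00000062489-ENSSSCG00000036224 had 1756, 3600 and 10877 TPM in spleen and 83.4, 559 and 2254 in lung, so that the ranges met (3.04 ± 0.474 over lung, limma adjusted p = 3.27e-06). ENSSSCG00000044779-ENSSSCG00000036224 had 524, 716 and 1661 TPM in spleen (2.88 ± 0.533, limma adjusted p = 4.82e-05). On chromosome 14 lay another 2, at a RefSeq entry typed as a C region. The fifth, a triple, lay on a scaffold next to IGHM, the heavy chain constant gene of IgM (2.26 ± 0.794, limma adjusted p = 0.0273). Reads of such near-identical segments may be divided uncertainly. The spleen-enriched count was 3 without the DSE4 animal.

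**Figure D3:**
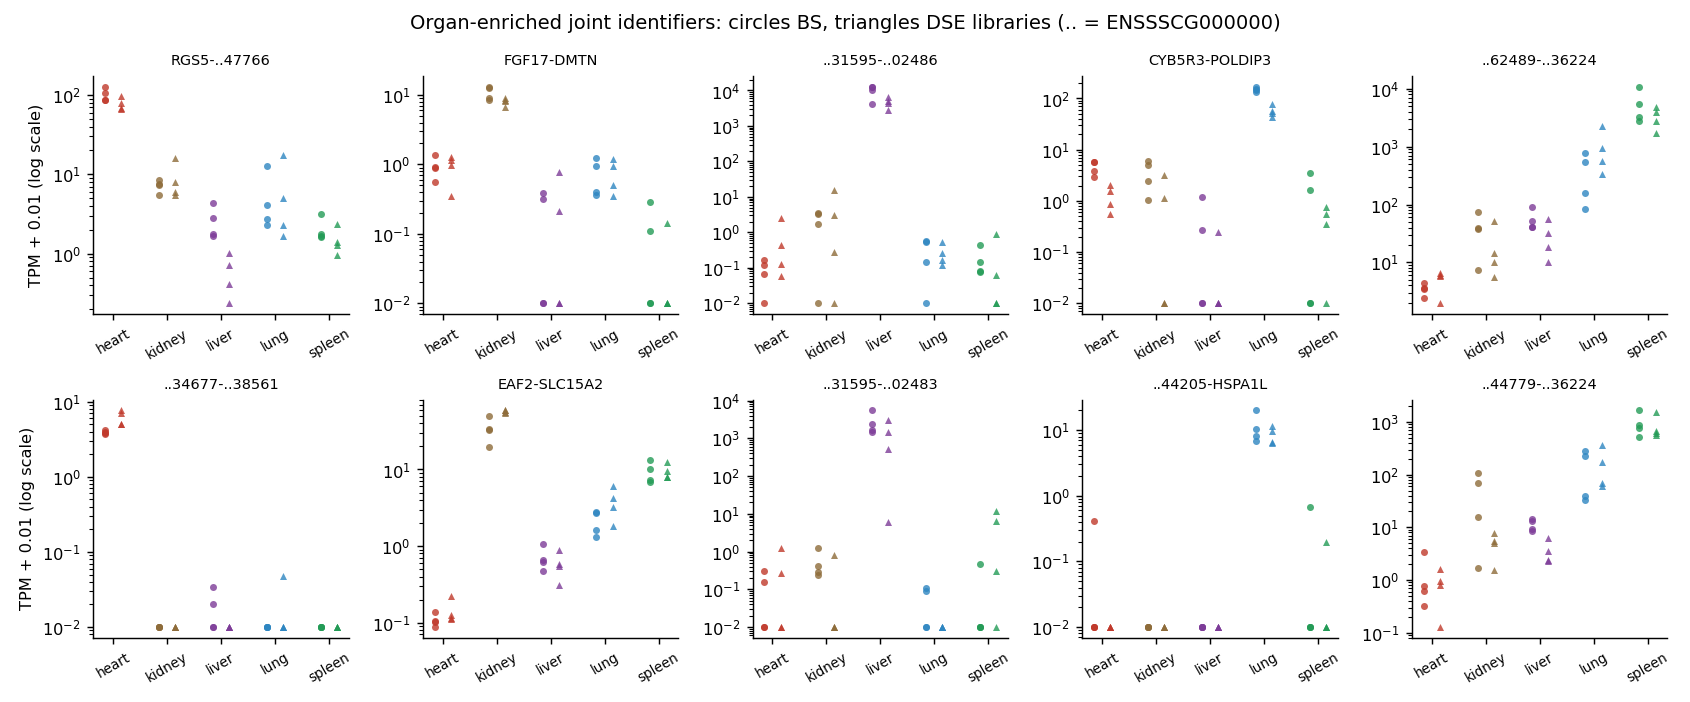
TPM plus 0.01 (y axis, log scale) of the 10 named organ-enriched joint identifiers in each of 40 libraries, by organ (x axis); circles are BS and triangles DSE animals, and the dots before a number stand for ENSSSCG000000. In lung, CYB5R3-POLDIP3 lies between 43.5 and 170 TPM, and the BS libraries are above the DSE libraries.

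Long reads gave a partly separate view, since their libraries were made separately. With edgeR's quasi-likelihood test, 15 of 67 joint identifiers with enough reads were organ-enriched (22.4%, against 16.2% of 2495 identifiers), 7 in liver, 4 in heart and 4 in spleen. The shares by organ were 5.29% of all in liver, 4.85% in heart and 1.32% in spleen, beside 3.33% in kidney and 1.36% in lung. Of the 60 tested in both kinds of data, 6 were called from short reads and 15 from long reads. The 6 were all among the 15 (6 of 6 and 6 of 15). This overlap was not counted over all identifiers, so it cannot be called particular to joint identifiers. The 6 included the serpin identifier in liver, LAMA2-ENSSSCG00000004207 in heart and the chromosome 14 identifier ENSSSCG00000031037-ENSSSCG00000038719 in spleen. AKR1C1-AKR1C2 was among those called from long reads only, with 24 reads in each liver library and none elsewhere. Its liver TPM, by contrast, was 165 in BS3, 6.49 in DSE2 and 5.47 in DSE4, and it was listed at 0 in the other livers.

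For most joint identifiers the highest organ was also that of a gene they joined. Where joint and single were both at 1 TPM or more, this held for 130 of 197. For 110 pairs of separate genes, the joined genes shared their highest organ in 58, and the joint identifier had the same one in 45 of these. Where the joined genes differed (52 pairs), the joint identifier was highest where its 5′ gene was in 24, where its 3′ gene was in 16, and elsewhere in 12. No such count was made for neighbouring single genes, so these counts have no background share beside them. Joint and single transcripts share exons, and how far shared reads tie their highest organ was not tested.

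B2M-B2M and SLA-1-SLA-1, at the light and a heavy chain of MHC class I, were highest in spleen while their single genes were highest in lung. For B2M-B2M the organs overlapped, with 10.6, 60.9 and 82.8 TPM in lung and 43.6, 61.0 and 96.8 in spleen. SLA-1-SLA-1 was listed at 0 in most libraries. It was detected in all 5 organs of DSE4, at 539 TPM in spleen, 266 in lung, 134 in kidney, 120 in liver and 21.7 in heart. Other DSE animals had 514 TPM (DSE3) and 39.2 (DSE1) in spleen and 39.8 (DSE2) in liver. It had at most 2.89 TPM in a BS library. Reads of SLA genes, which are near-identical copies, may be divided uncertainly. MRPS34-NME3 reached 51.0 TPM ± 15.7 in kidney and 48.8 ± 12.8 in lung, which differed by less than the spread between animals.

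Whether a joint identifier kept a fixed ratio to its own gene was asked of all pairs of same-strand neighbours or overlapping entries. The ratio differed between organs, by 2 or more log2 units at a limma adjusted p under 0.05, in 127 of 328 joint and own-gene pairs (38.7%). Beside it, 63.4% of all 11147 pairs, 64.3% of the 10519 pairs of single genes and 64.1% of the pairs of a joint identifier with another gene were called. The median spread of organ means was 1.67 log2 units for joint and own-gene pairs and 2.68 for single pairs. Joint and single transcripts share exons, and how far shared reads tie their ratio was not tested.

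Among joint and own-gene pairs, the widest spread was that of APOA5-ZPR1 to ZPR1. This sets the joint identifier against its 3′ gene only, and the level of its 5′ gene APOA5 is not given here. APOA5-ZPR1 took 51.7% of the TPM of joint and joined genes together, and the single entries held the rest. APOA5-ZPR1 had 360, 578 and 896 TPM in liver and at most 2.51 in kidney. ZPR1, a zinc finger protein made in most cells, had 1.70, 10.8 and 16.8 TPM in liver and between 16.7 and 43.5 elsewhere. The log2 ratio to ZPR1 was 6.19 ± 0.992 (SD, n = 8) in liver and -6.11 ± 0.195 in spleen (limma adjusted p = 1.23e-31). Only 3 full-length reads supported this identifier, all from the BS liver.

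ANKRD39-ANKRD23 lacked the heart level of ANKRD23, a muscle ankyrin repeat protein. The single gene was at 183, 290 and 390 TPM in heart, and the joint identifier at 0, 0.201 and 1.01 (log2 ratio -8.61 ± 0.773). The joint identifier was low in every organ, with means from 0.285 TPM in heart to 1.38 in lung. This pair was picked for its wide ratio, so unlikeness to ANKRD23 followed from the choice. Long reads did place the joint transcript in heart, with 45 and 18 of its 66 reads.

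TNFAIP8-HSD17B4 joined a regulator of immune cell survival to a peroxisomal fatty acid oxidation enzyme. The joint identifier was at 0, 109 and 156 TPM in kidney and 28.6, 113 and 170 in liver, and at most 21.3 in spleen, where TNFAIP8 had its highest median, 63.1 TPM. HSD17B4 had medians of 347 TPM in kidney and 341 in liver. Like the 3′ gene, the joint identifier was thus high in both kidney and liver. Its highest mean was in liver (108 TPM), which was the highest organ of neither joined gene. It was picked for its wide ratio to TNFAIP8, so unlikeness to that gene followed from the choice. Its 376 reads made up 23.0% of its locus, with 231 from the 2 kidney libraries.

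**Figure D4:**
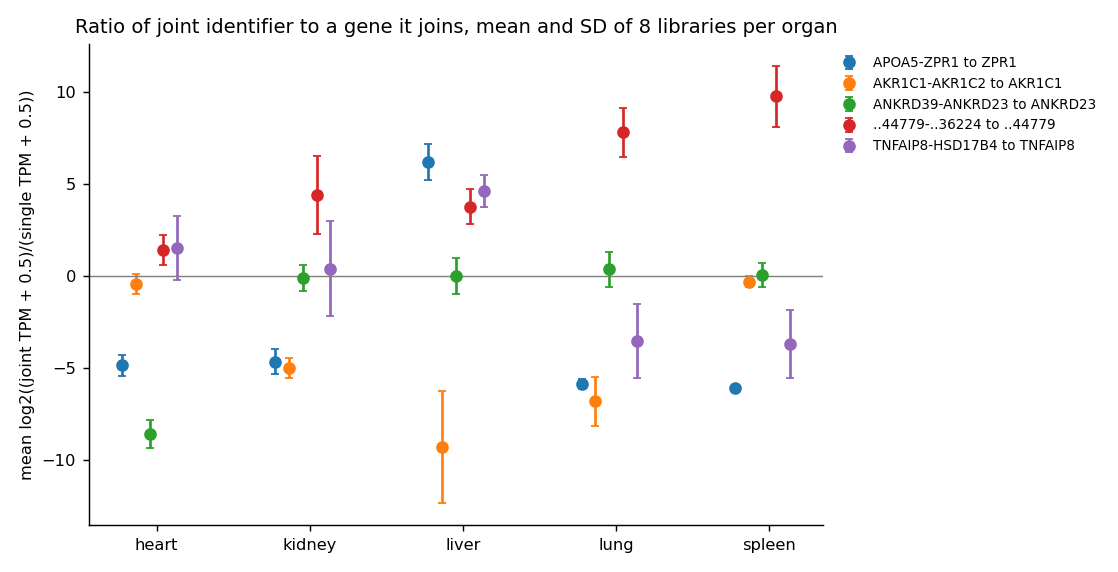
Log2 ratio of a joint identifier to 1 of the genes it joins (y axis, pseudocount 0.5 TPM) in the 5 organs (x axis), for 5 pairs with a wide spread between organs; points are means of 8 libraries and bars are SD. APOA5-ZPR1 to ZPR1 runs from 6.19 in liver to -6.11 in spleen.

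Levels in the BS and DSE animals were compared within each organ (4 against 4, limma, at least 2-fold at an adjusted p under 0.05). In lung 35 of 192 joint identifiers were called, 31 higher in DSE and 4 higher in BS. In all of the identifiers tested 10.3% were called, 7.5% as higher in DSE. The background was 2.85% higher in BS. In kidney 19 of 190 were called (background 5.24%), 12 of them higher in DSE (1.7%) and 7 in BS (3.54%). In spleen 12 of 192 were called (3.49%), 10 higher in DSE (1.68%) and 2 in BS (1.8%). Liver had 7 of 169 (3.99%), 6 higher in BS (3.02%) and 1 in DSE (0.971%). Heart had 6 of 152 (2.6%), 5 higher in BS (2.17%) and 1 in DSE (0.423%). Over the mean of the organs 9 of 202 were called (1.55%), 4 higher in BS (1.14%) and 5 in DSE (0.417%). The difference itself varied between organs for 17 of 231 joint identifiers, beside 8.4% of all.

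The lung count leaned on the scale. The median of all identifiers tested in lung was -0.21 log2 units (BS minus DSE), and that of joint identifiers -0.39. When libraries were rescaled by median ratios, these medians were 0.03 and -0.16. Then 5 joint identifiers were called higher in BS and 16 in DSE, beside 776 and 390 of all 14192 identifiers tested. The share higher in DSE was then 8.94% of joint and 2.75% of all identifiers. In the main fit it was 16.1% and 7.5%, so the count fell for both. The same rescaling gave 5 higher in BS and 4 in DSE in heart, beside 317 and 92 of all identifiers, and 7 and 11 in kidney, beside 530 and 196. It gave 9 and 3 in liver, beside 446 and 187, 3 and 5 in spleen, beside 320 and 111, and 5 and 3 over organs, beside 249 and 38. The shares higher in DSE, joint and then all, were 2.23% and 0.703% in heart and 5.98% and 1.45% in kidney. They were 1.6% and 1.42% in liver, 2.73% and 0.828% in spleen, and 1.46% and 0.256% over organs. In kidney the count was 31 without BS3, 12 higher in BS and 19 in DSE, beside 681 and 423 of all identifiers. Without BS1 it was 12, with 7 higher in BS and 5 in DSE, beside 437 and 131. The larger kidney count on the DSE side thus did not hold without BS1. The share higher in DSE was 10% of joint and 3.05% of all identifiers without BS3, and 2.65% and 0.946% without BS1. In liver the count was 16 without BS3, 10 higher in BS and 6 in DSE, beside 480 and 187 of all 12183 identifiers. It was 11 without BS1, 9 higher in BS and 2 in DSE, beside 308 and 142 of all 12072.

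RPS14-CD74 was higher in BS in 4 organs and over organs. In lung the BS animals had 2130, 2263, 3062 and 2396 TPM and the DSE animals 936, 913, 1263 and 1187. In liver BS had 231, 222, 140 and 224 TPM and DSE 76.4, 92.1, 81.2 and 61.1. The groups did not overlap in any of the 5 organs. Over organs the difference was 1.20 ± 0.0761 (log2, SE; limma adjusted p = 1.14e-05, higher in 4 of 4 BS animals than in any DSE animal). Identifiers named for BS and DSE were picked among those called without overlap over organs, so that separation followed from the choice. No share of all identifiers without overlap stands beside these statements. The single gene CD74 differed by 1.63 ± 0.116 (limma adjusted p = 1.54e-05) and RPS14 by 0.44 ± 0.0814, so that the joint value lay between them.

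Identifiers of antibody genes made up 2 of the other 3 higher in BS. ENSSSCG00000048391-ENSSSCG00000038719 had 4554, 4777, 6089 and 6302 TPM in the spleens of BS and 828, 1013, 1316 and 1436 in those of DSE. The groups did not overlap in spleen, but did in heart, kidney and lung. The difference over organs was 2.35 ± 0.406 (limma adjusted p = 0.000913), and both single genes it joins were called as well. It had no full-length read of 69 at its locus in the libraries used, which allows a share of up to 4.35% there by the same rule. The triple next to IGHM differed by 1.59 ± 0.421 (limma adjusted p = 0.00896).

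MGAT4A-COA5 was lower in BS. Its 5′ gene encodes a Golgi glycosyltransferase and its 3′ gene an assembly factor of cytochrome oxidase. In lung BS had 0.820, 0.424, 0.339 and 0 TPM and DSE 5.17, 3.34, 6.28 and 3.93. The groups were apart in lung and kidney but overlapped in spleen, heart and liver. Over organs the difference was -1.23 ± 0.172 (limma adjusted p = 0.000291), against -0.50 ± 0.0978 for MGAT4A and -0.15 ± 0.133 for COA5, neither of which was 2-fold.

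TMEM19-RAB21, whose 3′ gene is an endosomal small GTPase, showed the same direction (-1.14 ± 0.126, limma adjusted p = 8.75e-05). In heart BS had 0.963, 1.26, 1.56 and 1.11 TPM and DSE 2.76, 4.16, 4.08 and 2.89, without overlap. RAB21 itself differed by -0.49 ± 0.0562. LYSMD3-MBLAC2 differed by -1.12 ± 0.116 (limma adjusted p = 6.31e-05), with a single full-length read in 624. Its groups did not overlap in any organ, and it reached at most 6.34 TPM.

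**Figure D5:**
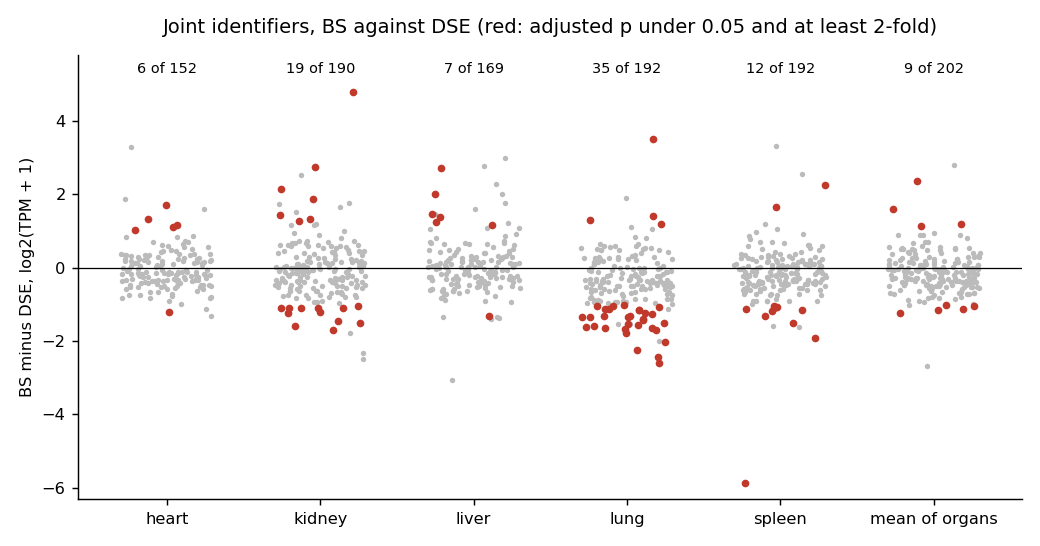
BS minus DSE on the log2(TPM + 1) scale (y axis) for every joint identifier tested, in each organ and over the mean of organs (x axis); each point is a joint identifier, red ones passed the test, and the number called of the number tested stands above each column. In lung 31 of the 35 called lie below 0.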

How the data were processed

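The authors deposited an annotation of assembled transcripts, gene and transcript TPM for the Illumina libraries, and counts of full-length reads per PacBio transcript. Per the submitters' processing notes, the tools were STAR 2.7.10a and Salmon 1.10.1 and the build was susScr11, without saying how each table was made. Start and end positions are as given in the deposited annotation, per the file headers. Illumina libraries were depleted of ribosomal RNA, per the labels' protocols. Whether counting used strand is not given in the sources used here. Another 20 gene TPM, 20 transcript TPM and 5 count columns match no label and were not used, and samples labelled DT were not analysed here.

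Joint identifiers are gene names with 2 or more ENSSSCG identifiers. The members, lists and tests were chosen with earlier results of these data known. Symbols came from the annotation (291 genes), a name table (2) or the RefSeq gene at the same position with at least 50% overlap (25), while 188 genes had none. No sequence is printed.

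TPM was tested with limma 3.58.1 (trend) on log2(TPM + 1) for identifiers at a mean of 1 TPM or more, ratios with a pseudocount of 0.5 TPM, and full-length counts with edgeR 4.0.16 (TMM, filterByExpr, pig group as a term), in R 4.3.3. DESeq2 1.42.0 was an alternative for counts. Adjusted p-values are Benjamini-Hochberg over all identifiers or pairs tested. In the long-read test the BS and DSE libraries stand as the replicates of an organ. The titles give animals a code only, so p-values measure the spread between these samples. Libraries with the same animal code deviated together only weakly across organs (mean r 0.0237 to 0.216), and same-numbered BS and DSE animals did not (mean r -0.0738 to -0.00701). No 2 libraries held identical values. Scripts were tested on simulated data.

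Named joint identifiers were the 5 with the most reads, the 5 highest in TPM, up to 2 organ-enriched per organ, the 3 with most genes, the 3 longest, up to 3 higher and 3 lower in BS over organs, the 6 widest ratios, and 6 whose highest organ differed from that of their genes. Those named as higher or lower in BS were taken only from identifiers called over organs without overlap of the animals. A result for 1 of the widest ratios is not reported here. Others are named in lists and were chosen after their values were seen. Alternatives were another pseudocount, filters, median-ratio scaling, blocks, and each animal or library left out.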

Additional observations from a re-analysis of the deposited data

Results flagged for a closer look

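In 84 sets of 4 animals, the named joint identifiers in their highest organ and the share of TPM were checked for an animal far from the others, and 5 stood apart. Chance flags about 1 set in 20. ZBED5-EIF4G2 was at 0.935 TPM in the lung of DSE2, with the other DSE lungs at 0.153 or less. ENSSSCG00000044779-ENSSSCG00000036224 was at 1557 TPM in the spleen of DSE4, above the other DSE spleens at 564 to 680. LAMA2-ENSSSCG00000004207 was at 42.9 TPM in the heart of DSE2, with the others at 22.1 to 25.1. AKR1C1-AKR1C2 was at 165 TPM in the liver of BS3 and listed at 0 in the other BS livers. B2M-B2M was at 84.4 TPM in the spleen of BS4, with the others at 52.7 to 56.4.

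For 3 of the 37 named joint identifiers the BS and DSE difference itself differed between organs (limma interaction over organs). Among all identifiers tested this held for 8.4%, so such a flag is not particular to them. ENSSSCG00000034677-ENSSSCG00000038561, in TTN, had an adjusted p of 0.00264, with 3.93 TPM in BS and 6.24 in DSE hearts and levels at or near 0 elsewhere. ENSSSCG00000055215-CSRNP3-ENSSSCG00000052061 had an adjusted p of 0.0461, with 0.601 TPM in BS and 1.80 in DSE kidneys. MGAT4A-COA5 had an adjusted p of 0.0439, with differences of -0.33 in liver, -0.43 in heart, -1.45 in kidney, -1.91 in spleen and -2.03 in lung (log2).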

How the results depend on the processing

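Of the counts and shares reported, 73 of 89 values under other settings stayed within 1.5 times the main count or 1 SD. With median-ratio scaling the enriched count was 16 in liver and 1 in kidney, and the pig group count 12 in liver and 21 in lung. The enriched counts have no background by organ beside them, and that of the pig group counts is given above. With a pseudocount of 0.1 the pig group count was 30 in kidney, 11 in liver and 24 over organs. The background moved as well. Of all identifiers, 772 were higher in BS and 412 in DSE of 13820 in kidney. These numbers were 742 and 223 of 12147 in liver, and 439 and 197 of 15118 over organs. With a minimum of 5 TPM 76 ratio pairs were called, in number fewer because fewer pairs were tested, and 40.2% of them. With no filter 5.88% of all identifiers were organ-enriched. Without the mitochondrial genome the TPM share was 0.445% in heart, 0.615% in kidney and 1.46% in lung. Of all full-length reads, the base used in the text by library, joint identifiers took a mean of 2.0008% in spleen, 1.58% in liver, 0.991% in lung and 0.845% in heart. Of the reads of annotated transcripts they took 3.63%, 3.46%, 1.84% and 1.57% there.

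Leaving out 1 animal gave 12 to 31 pig group calls in kidney, 7 to 16 in liver, and 3 to 7 enriched in spleen, the lowest without DSE4. Enriched counts elsewhere, lung, spleen and ratio counts stayed within 1.5 times. Calls among all identifiers moved as well, as given above for kidney and liver without BS1 and BS3. The cause was not tested. FGF17-DMTN fell under 4-fold with median-ratio scaling. The other named values kept direction and call in every alternative run in which they were tested. Over organs, MGAT4A-COA5, TMEM19-RAB21 and LYSMD3-MBLAC2 were tested in 12 alternatives, against 13 for RPS14-CD74. The named ratios were tested in 9 to 11. With the animal as a replicate block 24 joint identifiers were still organ-enriched (10.8%) and 131 ratio pairs were called. With the shared animal number as a replicate block the pig group counts were 35 in lung, 19 in kidney, 12 in spleen, 10 in liver, 5 in heart and 9 over organs. Of all identifiers, 423 were then higher in BS and 1119 in DSE in lung, 485 and 235 in kidney, and 247 and 235 in spleen. In liver it was 366 and 115, in heart 258 and 50, and over organs 173 and 65. DESeq2 called 10 joint identifiers from long reads, and edgeR without a pig group term 11. No share of all identifiers stands beside these long-read counts, so they cannot be called particular to joint identifiers. Most joint identifiers rest on few reads, and short-read depth is unknown.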
